A study of Mus musculus with 6 samples.

Results

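The cell cycle genes described here are 44 genes chosen by symbol from the table of read counts, 20 of them genes of the G1/S transition and DNA replication (Mcm2 to Cdc45) and 24 of them genes of G2 and mitosis (Mki67 to Hmmr), out of 17128 genes in the table. All 44 had an entry, and all 44 passed the filter on low counts that left 13926 genes for the test. The RNA came from cells sorted out of mouse femurs at postnatal day 21, with about 20000 cells used per library and the growth plate of the distal end removed before digestion with collagenase. In the CXCL12-deficient group (n = 3) the sorted cells were GFP+ and tdTomato+ and came from Cxcl12(GFP/fl); Col2a1-cre; R26R(tdTomato/+) mice. In the control group (n = 3) they were GFP+ and came from Cxcl12(GFP/fl); R26R(tdTomato/+) mice, which carry the floxed allele without a Cre. All mice therefore had 1 Cxcl12 allele with GFP and 1 floxed allele, and the Col2a1-cre transgene acts in descendants of cells that expressed the cartilage collagen gene Col2a1. The groups thus differ at once in gate, in Cre and in whether a Cre could act on the floxed allele. These differences cannot be told apart. Whether the libraries came from separate animals is not stated, so a p-value reflects only how much these libraries vary.

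A dividing cell passes through 2 main waves of transcription. In the first, the E2F factors are released from the retinoblastoma protein and its relatives and switch on genes of nucleotide supply, of replication origins and of the MCM helicase that unwinds DNA. In the second, the MuvB complex together with B-Myb and FOXM1 switches on genes of the mitotic kinases, the spindle and the kinetochore, while in resting cells MuvB with a retinoblastoma relative and E2F4 (the DREAM complex) holds both waves down. Marrow stromal cells are known as mostly resting cells, and the blood-forming progenitors around them as rapidly dividing ones.

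The promoters of the 2 blocks differed in the motifs known for these waves. Promoter sequences came from RefSeq on GRCm38.p6, each covering 250 bases before and 50 after a start site, and 37 of the 44 genes matched an entry. The CHR element, through which MuvB binds, was searched as TTTGAA or TTCGAA on both strands. It stood in 16 of 20 G2/M promoters (80.0%), in 3 of 17 G1/S promoters (17.6%) and in 16.5% of the promoters of 9843 tested genes with an entry. In 15 of the 16 G2/M genes and 1 of the 3 G1/S genes with a CHR element, one began within 50 bases of the start site. The share of such positions over all tested genes was not computed. The E2F site was searched as TTTCCCGC, TTTGGCGC, TTTCGCGC or TTTGCCGC on both strands. It stood in 1 of 20 G2/M promoters (5.0%, Cdk1), in 7 of 17 G1/S promoters (41.2%) and in 4.51% of the tested genes. The CCAAT box, bound by NF-Y and searched as CCAAT on both strands, stood in 18 of 20 G2/M promoters (90.0%), in 10 of 17 G1/S promoters (58.8%) and in 43.1% of the tested genes. Over all 27025 genes with an entry the shares were 21.7% for the CHR element, 2.6% for the E2F site and 41.1% for the CCAAT box. A match describes letters in these windows and is no measure of binding. Mcm7, Prc1 and Uhrf1 had 2 windows each and were counted where either held the motif. Mcm4, Ccne2, Gins2, Aurkb, Kif20a, Tpx2 and Ccna2 had no entry.

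**Figure D1:**
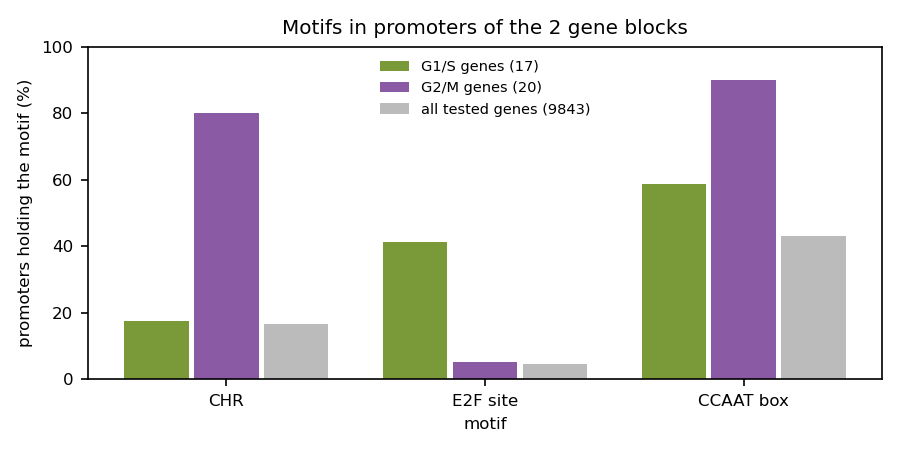
Share of promoters (y axis, %) that hold a CHR element, an E2F site or a CCAAT box (x axis) among 17 G1/S genes, 20 G2/M genes and 9843 tested genes. CHR elements reach 80.0% in G2/M genes, and E2F sites reach 41.2% in G1/S genes.

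The sequences below show the 160 bases before the start site of 3 genes of the second wave and 2 of the first, chosen because their motifs lie upstream of the start. Capitals mark CHR elements and E2F sites, and the start site follows the last base. Top2a lies on the minus strand (chr11:99024190-99024349), as do Cdc20 (chr4:118437344-118437503), Cdk1 (chr10:69352913-69353072) and Mcm6 (chr1:128359706-128359865), and Mcm5 on the plus strand (chr8:75109349-75109508).
Top2a: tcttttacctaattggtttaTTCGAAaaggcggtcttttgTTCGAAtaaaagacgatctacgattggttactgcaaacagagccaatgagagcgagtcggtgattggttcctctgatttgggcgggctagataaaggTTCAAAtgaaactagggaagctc
Cdc20: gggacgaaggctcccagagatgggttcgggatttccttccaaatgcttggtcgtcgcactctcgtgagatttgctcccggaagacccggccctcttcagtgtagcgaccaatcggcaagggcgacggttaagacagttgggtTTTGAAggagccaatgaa
Cdk1: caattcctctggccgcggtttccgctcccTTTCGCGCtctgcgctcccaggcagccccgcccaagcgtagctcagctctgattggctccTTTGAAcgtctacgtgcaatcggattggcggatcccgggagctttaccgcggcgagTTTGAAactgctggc
Mcm5: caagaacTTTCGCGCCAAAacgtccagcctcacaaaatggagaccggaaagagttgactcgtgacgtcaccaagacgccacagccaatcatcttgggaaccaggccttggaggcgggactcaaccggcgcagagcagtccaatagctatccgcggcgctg
Mcm6: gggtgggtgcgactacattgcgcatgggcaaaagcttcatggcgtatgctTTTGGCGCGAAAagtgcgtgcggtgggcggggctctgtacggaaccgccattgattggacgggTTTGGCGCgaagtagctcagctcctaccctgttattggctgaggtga
Within this stretch the Top2a promoter held 3 CHR elements, which began 140, 120 and 23 bases before the start site, and that of Cdc20 held 1 at 18 bases. Cdk1 was the one member of the second wave with both kinds, an E2F site at 131 bases and CHR elements at 71 and 15 bases. Mcm5 held a pair of overlapping E2F sites on opposite strands, which began at 153 and 149 bases. Mcm6 held another such pair at 110 and 106 bases and a further site at 47 bases.

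All 44 genes had a negative log2 fold change in CXCL12-deficient over control libraries, but few single genes passed the test and the libraries of the groups overlapped. By the quasi-likelihood test of edgeR with Benjamini-Hochberg adjustment over 13926 genes and a threshold of 0.05, 3 of the 44 fell and 0 rose, where 3.94% of all tested genes fell and 0.639% rose (4.57% in either direction). The 3 that fell were the G2/M genes Top2a, Kif23 and Tpx2. None of the 20 G1/S genes was called by edgeR or limma-voom, 5 were called by DESeq2 and 12 had an unadjusted edgeR p below 0.05. Of the 24 G2/M genes, 11 were called lower by DESeq2 and 4 by limma-voom, and 19 had an unadjusted edgeR p below 0.05. DESeq2 called 7.39% of the 13377 genes to which it gave an adjusted p lower, limma-voom called 3.88% of all tested genes lower, and 11.3% had an unadjusted edgeR p below 0.05 with a negative fold change. In the higher direction none of the 44 passed any of these rules, against 2.27% of those 13377 genes by DESeq2, and 0.603% of all tested genes by limma-voom and 7.59% at the unadjusted p. The median log2 fold change was -0.65 in the G1/S block, -0.78 in the G2/M block and 0.03 over all tested genes, of which 47.4% were negative. The members vary together across the libraries, so these counts are not counts of independent events.

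**Figure D2:**
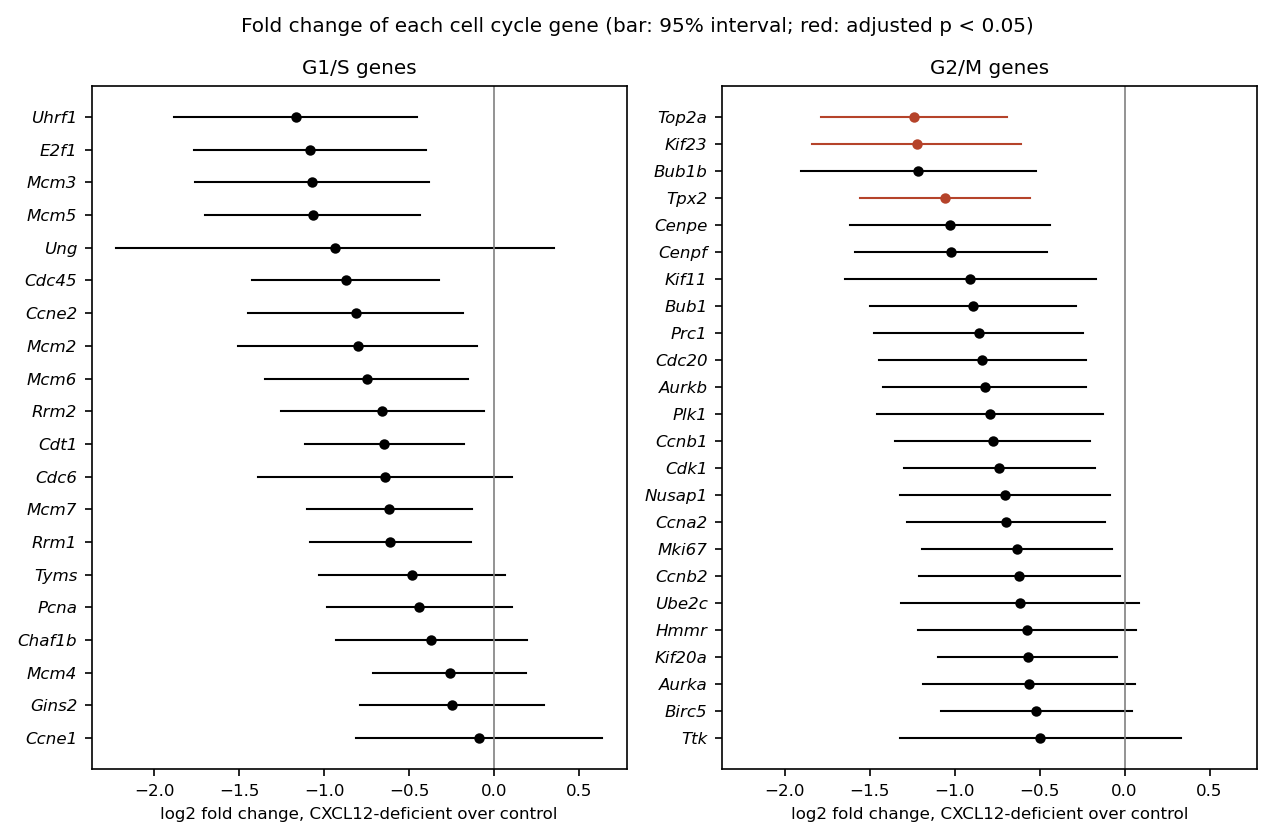
Log2 fold change of CXCL12-deficient over control libraries (x axis) for the 20 G1/S genes (left) and 24 G2/M genes (right), each with its 95% interval from edgeR. All 44 points lie below 0, from -1.24 (Top2a) to -0.09 (Ccne1), and the 3 called genes are in red.

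Control replicate 1 stood apart from the other control libraries. It was the lowest of the 3 controls at 42 of the 44 genes, where it was the lowest at 37.1% of all tested genes. In CPM (read counts scaled to library size with TMM factors), the G1/S genes summed to 2124, 2176 and 1554 in CXCL12-deficient replicates 1, 2 and 3, against 2070, 3319 and 3978 in control replicates 1, 2 and 3. CXCL12-deficient replicates 1 and 2 thus lay slightly above control replicate 1. The G2/M genes summed to 1566, 1738 and 1052 CPM in CXCL12-deficient replicates 1, 2 and 3, against 1702, 2794 and 2871 CPM in control replicates 1, 2 and 3. The groups therefore overlapped in the sum of either block. The means were 1951 ± 345 CPM in CXCL12-deficient and 3122 ± 969 CPM in control libraries for the G1/S genes (SD, n = 3 each). For the G2/M genes they were 1452 ± 357 CPM in CXCL12-deficient and 2455 ± 654 CPM in control libraries. Sums are led by the genes with the most reads.

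Gene by gene, all 3 CXCL12-deficient libraries lay below all 3 controls at 19 of 44 genes (9 of the G1/S block and 10 of the G2/M block), where 13.9% of all tested genes did so. Against control replicates 2 and 3 alone they lay below at 41 of 44 (17 and 24), where 20.1% of all tested genes did. The exceptions were Gins2, Ccne1 and Chaf1b, named after their values were seen. They lay below control replicate 3 at 42 genes and below control replicate 1 at only 20, where 29.9% and 28.3% of all tested genes did. Control replicate 3 was the highest control at 32 genes and the highest of all 6 libraries at 31, where 34.2% and 20.2% of all tested genes had it there. CXCL12-deficient replicate 3 was the lowest of its group at 41 of the 44 genes, where it was the lowest at 32.5% of all tested genes, and lay below control replicate 1 at 43. CXCL12-deficient replicates 1 and 2 lay below control replicate 1 at 27 and 24 of the 44. Over all 13926 tested genes, CXCL12-deficient replicates 1, 2 and 3 lay below control replicate 1 at 7109, 7088 and 7100. Over the members, the median log2 difference was 0.81 for control replicate 3 over control replicate 1, a spread inside one group as large as the difference between the groups. Leaving out control replicate 1 raised the edgeR calls to 7 in each block, where 530 of 14182 tested genes were called lower. Without CXCL12-deficient replicate 2 there were 1 G1/S call (Uhrf1) and 2 G2/M calls (Bub1b and Kif23). In that fit 412 of 14277 tested genes were called lower. Without CXCL12-deficient replicate 1 or 3 or control replicate 2 or 3, edgeR called none of the 44. In these 4 fits between 6 and 12 G1/S genes and between 10 and 15 G2/M genes had an unadjusted p below 0.05. At that p, 1620 of 14230, 1536 of 14280, 1279 of 14200 and 1175 of 14206 tested genes were lower, in that order of fits. After adjustment, edgeR called between 74 and 456 of the tested genes lower in them.

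**Figure D3:**
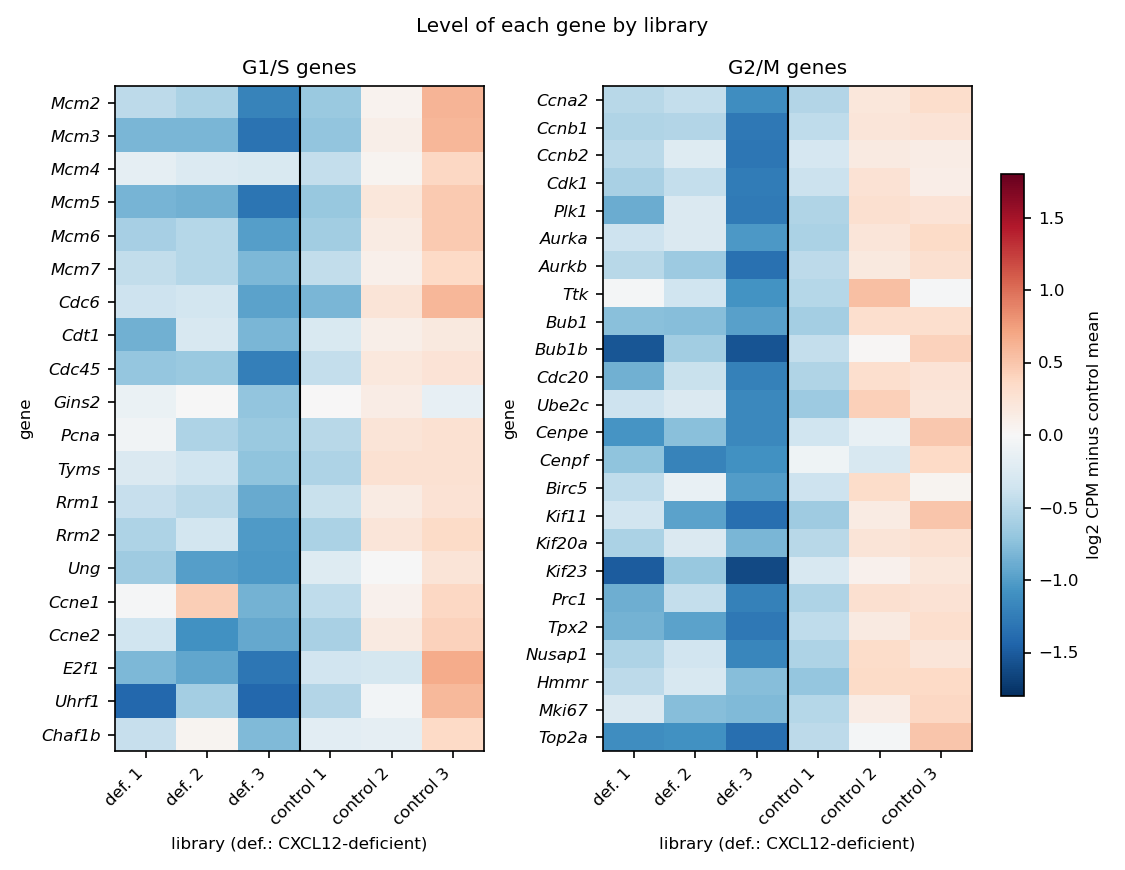
Log2 CPM of each gene minus its mean in the controls (colour), for G1/S genes (left) and G2/M genes (right) in the 3 CXCL12-deficient and then the 3 control libraries (columns). CXCL12-deficient replicate 3 is the lowest of its group at 41 of 44 genes and control replicate 1 the lowest of the controls at 42.

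Set against each other, the G2/M block was lower by slightly more than the G1/S block, and the libraries of the groups overlapped in that difference. The mean log2 CPM over the G1/S genes was 5.85 ± 0.27 in CXCL12-deficient and 6.51 ± 0.43 in control libraries, a difference of -0.65 (SD, n = 3 each). Over the G2/M genes it was 5.57 ± 0.33 in CXCL12-deficient and 6.37 ± 0.42 in control libraries, a difference of -0.80. The mean of the G2/M genes minus that of the G1/S genes was -0.30, -0.20 and -0.35 in CXCL12-deficient replicates 1, 2 and 3, against -0.15, -0.04 and -0.23 in control replicates 1, 2 and 3. These ranges overlapped, since control replicate 3 lay below CXCL12-deficient replicate 2. The means were -0.28 ± 0.08 in CXCL12-deficient and -0.14 ± 0.10 in control libraries, a difference of -0.15, which is larger than either SD. No p is given because the members were chosen with earlier results known. When any 1 library was omitted, that difference lay between -0.19 and -0.09. The log2 ratio of the summed CPM, G2/M over G1/S, was -0.44 ± 0.12 in CXCL12-deficient and -0.33 ± 0.12 in control libraries, and so differed by less than 1 SD. That edgeR called genes in one block and not in the other is no test of a difference between them.

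**Figure D4:**
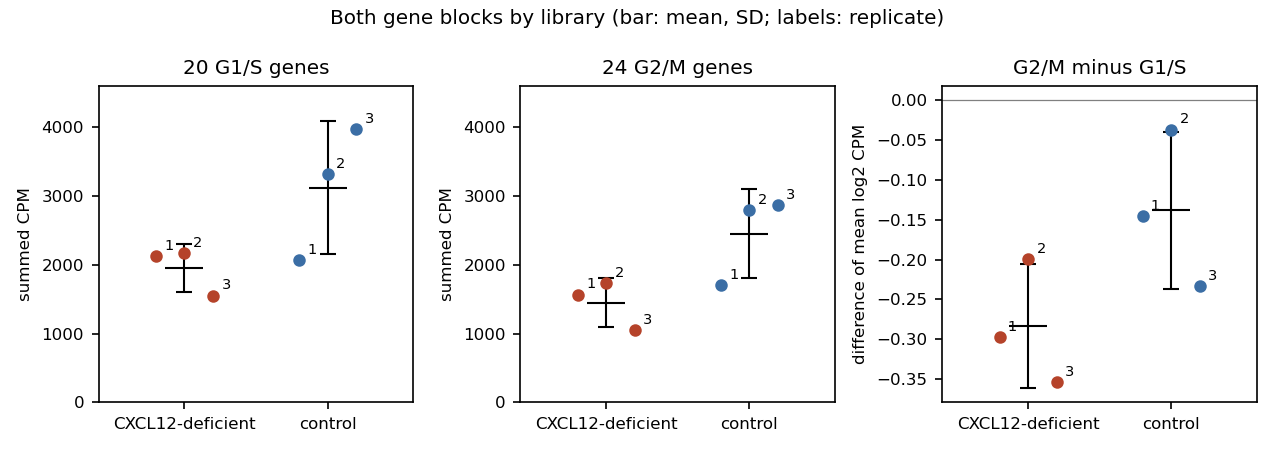
Summed CPM of the G1/S genes (left) and the G2/M genes (middle), and the mean log2 CPM of the G2/M genes minus that of the G1/S genes (right), by library (points), with the mean and SD of each group (bars). In each panel the CXCL12-deficient libraries overlap the controls. Control replicate 1 sits at 2070 and 1702 CPM, near CXCL12-deficient replicates 1 and 2.

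Levels differed widely among members. Per kilobase of exon in GENCODE M21, the highest was Rrm2, with 161 CPM per kilobase in CXCL12-deficient and 254 in control libraries. Ccnb2 followed with 79.6 in CXCL12-deficient and 122 in control libraries, and Pcna with 57.4 in CXCL12-deficient and 77.9 in control libraries. The lowest was Ung, with 0.192 in CXCL12-deficient and 0.368 in control libraries. This order is approximate, because the authors' own gene models are not known here.

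Within the first wave, the MCM helicase genes had log2 fold changes from -1.07 to -0.26, and none was called. MCM2 to MCM7 form the ring that is loaded on origins in G1 and later unwinds the DNA. In the paragraphs that follow, values per library are CPM in the order of replicates 1, 2 and 3 of each group. Mcm5 had 119, 116 and 85.0 CPM in CXCL12-deficient libraries, against 132, 245 and 295 CPM in controls (log2 fold change -1.07 ± 0.28 SE, adjusted p = 0.070, edgeR). Mcm3 had 103, 102 and 71.9 CPM in CXCL12-deficient libraries, against 111, 196 and 276 CPM in controls (log2 fold change -1.07 ± 0.30 SE, adjusted p = 0.092, edgeR). At both genes every CXCL12-deficient library lay below every control, by a small margin from control replicate 1. Mcm7 had 181, 173 and 141 CPM in CXCL12-deficient libraries, against 181, 262 and 317 CPM in controls (log2 fold change -0.62 ± 0.21 SE, adjusted p = 0.16, edgeR), and control replicate 1 was level with CXCL12-deficient replicate 1. Mcm4 had 147, 138 and 136 CPM in CXCL12-deficient libraries, against 122, 171 and 213 CPM in controls (log2 fold change -0.26 ± 0.20 SE, adjusted p = 0.54, edgeR), with control replicate 1 below all 3 CXCL12-deficient libraries. Mcm2 and Mcm6 had log2 fold changes of -0.80 and -0.75 with overlapping groups.

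Genes that load or start the helicase had smaller or similar differences. CDC6 and CDT1 load the MCM ring. Cdt1 had 39.1, 58.4 and 40.4 CPM in CXCL12-deficient libraries, against 58.8, 76.3 and 80.7 CPM in controls (log2 fold change -0.65 ± 0.21 SE, adjusted p = 0.13, edgeR). CXCL12-deficient replicate 2 almost reached control replicate 1 there. Cdc6 had 57.5, 59.2 and 38.4 CPM in CXCL12-deficient libraries, against 42.0, 87.5 and 113 CPM in controls (log2 fold change -0.64 ± 0.33 SE, adjusted p = 0.34, edgeR), and the groups overlapped. CDC45 and the GINS complex turn the loaded ring into the active helicase. Cdc45 had 25.6, 26.1 and 17.7 CPM in CXCL12-deficient libraries, against 30.8, 47.4 and 49.0 CPM in controls (log2 fold change -0.87 ± 0.24 SE, adjusted p = 0.087, edgeR), with no overlap. Gins2 had 19.5, 21.1 and 12.9 CPM in CXCL12-deficient libraries, against 21.2, 23.2 and 19.1 CPM in controls (log2 fold change -0.25 ± 0.24 SE, adjusted p = 0.65, edgeR), and its 95% interval ran from -0.79 to 0.29.

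Nucleotide supply genes were similar to each other in size. RRM1 and RRM2 are the subunits of ribonucleotide reductase, which makes the building blocks of DNA. Rrm1 had 181, 173 and 129 CPM in CXCL12-deficient libraries, against 183, 267 and 288 CPM in controls (log2 fold change -0.61 ± 0.21 SE, adjusted p = 0.15, edgeR), where CXCL12-deficient replicate 1 was only just below control replicate 1. Rrm2, the subunit that is limiting in S phase, had 462, 539 and 334 CPM in CXCL12-deficient libraries, against 459, 789 and 860.4 CPM in controls (log2 fold change -0.66 ± 0.26 SE, adjusted p = 0.22, edgeR), with control replicate 1 inside the range of the CXCL12-deficient libraries. Tyms, encoding thymidylate synthase, had 56.6, 53.0 and 41.0 CPM in CXCL12-deficient libraries, against 46.3, 82.5 and 82.1 CPM in controls (log2 fold change -0.49 ± 0.24 SE, adjusted p = 0.32, edgeR). Its groups overlapped, as did those of the sliding clamp gene Pcna (log2 fold change -0.44). Ung, encoding the uracil-DNA glycosylase that removes uracil from DNA, had only 30, 22 and 21 reads in CXCL12-deficient libraries, against 47, 49 and 50 reads in controls. That is 1.25, 0.959 and 0.932 CPM in CXCL12-deficient libraries, against 1.68, 1.99 and 2.36 CPM in controls (log2 fold change -0.94 ± 0.57 SE, adjusted p = 0.43, edgeR), with no overlap but an interval from -2.22 to 0.35.

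Among regulators of the G1/S transition, Uhrf1, which directs DNA methylation to new strands, had the lowest fold change of the block. Uhrf1 had 34.4, 59.7 and 34.1 CPM in CXCL12-deficient libraries, against 63.2, 88.1 and 137 CPM in controls (log2 fold change -1.17 ± 0.32 SE, adjusted p = 0.078, edgeR), with no overlap. E2f1, an activating E2F factor gene, had 19.9, 18.3 and 14.2 CPM in CXCL12-deficient libraries, against 27.6, 27.9 and 55.5 CPM in controls (log2 fold change -1.08 ± 0.30 SE, adjusted p = 0.087, edgeR), with control replicate 3 far above the other controls and no overlap between the groups. The cyclin E genes, partners of CDK2 at S phase entry, differed in fold change. Ccne2 had 71.6, 43.2 and 48.4 CPM in CXCL12-deficient libraries, against 61.4, 103 and 123 CPM in controls (log2 fold change -0.81 ± 0.28 SE, adjusted p = 0.15, edgeR), and control replicate 1 lay below CXCL12-deficient replicate 1. Ccne1 had 57.8, 79.4 and 32.5 CPM in CXCL12-deficient libraries, against 42.7, 62.0 and 75.7 CPM in controls (log2 fold change -0.09 ± 0.32 SE, adjusted p = 0.92, edgeR), with the highest value of all 6 libraries in CXCL12-deficient replicate 2. Its log2 fold change was 0.19 without CXCL12-deficient replicate 3 and 0.10 without control replicate 3, the only changes of sign among the 44 genes in the fits without 1 library or with another filter, scaling or tool. Whether the cyclin E genes differ from each other was not tested. Chaf1b, a chromatin assembly factor subunit, had a log2 fold change of -0.37 with overlapping groups.

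In the second wave, Top2a and Mki67 are the classical proliferation markers, and only Top2a passed the test. Whether they differ from each other was not tested. Top2a, encoding the topoisomerase that untangles chromosomes, had 38.7, 39.3 and 32.7 CPM in CXCL12-deficient libraries, against 60.7, 82.2 and 119 CPM in controls. It fell by 1.24 ± 0.24 on the log2 scale (SE, adjusted p = 0.024, edgeR), with every CXCL12-deficient library well below every control. Mki67, encoding the Ki-67 protein of the mitotic chromosome surface, had 76.1, 53.4 and 52.7 CPM in CXCL12-deficient libraries, against 64.1, 101 and 118 CPM in controls (log2 fold change -0.63 ± 0.25 SE, adjusted p = 0.21, edgeR). Control replicate 1 lay below CXCL12-deficient replicate 1 there. Top2a was called in 1 of the 6 fits without a library, the one without control replicate 1, and its adjusted p ran from 0.015 to 0.081 over these fits.

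Spindle genes held the other called members. KIF23 and PRC1 build the central spindle that guides cytokinesis. Kif23 had 21.2, 37.5 and 19.4 CPM in CXCL12-deficient libraries, against 49.0, 63.8 and 69.6 CPM in controls, and fell by 1.22 ± 0.27 on the log2 scale (SE, adjusted p = 0.040, edgeR), with no overlap. Its CHR element began 3 bases after the start site. Prc1 had 59.3, 81.0 and 46.8 CPM in CXCL12-deficient libraries, against 74.0, 134 and 131 CPM in controls (log2 fold change -0.86 ± 0.27 SE, adjusted p = 0.13, edgeR), with control replicate 1 between CXCL12-deficient replicates 1 and 2. Tpx2, encoding the activator that carries Aurora A to the spindle, had 51.9, 48.1 and 38.3 CPM in CXCL12-deficient libraries, against 68.5, 105 and 115 CPM in controls, and fell by 1.06 ± 0.22 on the log2 scale (SE, adjusted p = 0.031, edgeR), again with no overlap. Kif23 was called in 2 and Tpx2 in 1 of the 6 fits without a library, with adjusted p from 0.021 to 0.17 and from 0.015 to 0.14. Both were called without control replicate 1, and Kif23 also without CXCL12-deficient replicate 2. Hmmr, a spindle and hyaluronan binding protein gene, had 33.9, 38.3 and 27.4 CPM in CXCL12-deficient libraries, against 28.8, 59.5 and 60.1 CPM in controls (log2 fold change -0.57 ± 0.28 SE, adjusted p = 0.32, edgeR), and control replicate 1 lay among the CXCL12-deficient libraries. The motor genes Kif11 and Kif20a and the microtubule binder gene Nusap1 had log2 fold changes of -0.91, -0.57 and -0.70 with overlapping groups.

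Of the 7 checkpoint and anaphase members, edgeR called none, DESeq2 called 5 and limma-voom called 1, and 5 had an unadjusted edgeR p below 0.05. Over all tested genes, edgeR called 3.94% lower and limma-voom 3.88%, and 11.3% had such an unadjusted p with a negative fold change. DESeq2 called 7.39% of the 13377 genes it adjusted lower. The 3 members with the smallest p had adjusted p from 0.054 to 0.063 (edgeR). BUB1B is a component of the mitotic checkpoint that restrains anaphase. Bub1b had 22.5, 42.7 and 22.2 CPM in CXCL12-deficient libraries, against 48.8, 66.4 and 87.5 CPM in controls (log2 fold change -1.21 ± 0.31 SE, adjusted p = 0.061, edgeR; limma-voom adjusted p = 0.048), with no overlap. CENPE is a kinetochore motor and CENPF a large kinetochore protein. Cenpe had 14.3, 17.7 and 13.4 CPM in CXCL12-deficient libraries, against 23.4, 27.3 and 42.0 CPM in controls (log2 fold change -1.03 ± 0.26 SE, adjusted p = 0.063, edgeR). Cenpf had 15.2, 10.8 and 11.7 CPM in CXCL12-deficient libraries, against 23.9, 20.5 and 32.2 CPM in controls (log2 fold change -1.02 ± 0.25 SE, adjusted p = 0.054, edgeR). The groups did not overlap at either gene, and control replicate 1 was not the lowest control at Cenpf. Ube2c, the ubiquitin-conjugating enzyme of the anaphase-promoting complex, had 139, 151 and 80.1 CPM in CXCL12-deficient libraries, against 114, 243 and 209.7 CPM in controls (log2 fold change -0.62 ± 0.31 SE, adjusted p = 0.33, edgeR), with control replicate 1 below CXCL12-deficient replicates 1 and 2. The checkpoint kinase gene Bub1, the anaphase activator gene Cdc20 and the survivin gene Birc5 had log2 fold changes of -0.89, -0.84 and -0.52, with no overlap only at Bub1 among them.

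Mitotic cyclin and kinase genes had log2 fold changes from -0.82 to -0.50, and none was called. CDK1 with cyclin B drives entry into mitosis. Cdk1 had 68.1, 75.9 and 42.4 CPM in CXCL12-deficient libraries, against 78.0, 122 and 111 CPM in controls (log2 fold change -0.74 ± 0.25 SE, adjusted p = 0.15, edgeR). Ccnb1 had 122, 122 and 72.5 CPM in CXCL12-deficient libraries, against 129, 205 and 209 CPM in controls (log2 fold change -0.78 ± 0.25 SE, adjusted p = 0.14, edgeR). Aurkb, the kinase of the chromosomal passenger complex, had 78.3, 70.6 and 43.5 CPM in CXCL12-deficient libraries, against 80.2, 126 and 135 CPM in controls (log2 fold change -0.82 ± 0.26 SE, adjusted p = 0.13, edgeR). At these 3 genes the groups did not overlap, but CXCL12-deficient replicate 1 or 2 came close to control replicate 1. Ttk, the kinase that starts checkpoint signalling, had 12.5, 9.99 and 6.04 CPM in CXCL12-deficient libraries, against 8.92, 18.7 and 12.6 CPM in controls (log2 fold change -0.50 ± 0.37 SE, adjusted p = 0.52, edgeR), and its groups overlapped. Ccna2, Ccnb2, Plk1 and Aurka had log2 fold changes of -0.70, -0.62, -0.79 and -0.57 with overlapping groups.

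In 9 further lists of cell cycle genes, 6 of 102 genes (5.88%) fell and 0 rose by edgeR, near the 3.94% of all tested genes that fell. Their median log2 fold change was -0.53. It was -0.79 for 12 kinetochore genes, -0.75 for 16 condensin, spindle and cytokinesis genes and -0.52 for 20 replication fork genes. It was -0.50 for 9 genes of mitotic entry and exit and -0.06 for 12 of the retinoblastoma and E2F families. In the order given, 9, 13, 8, 3 and 3 genes of these lists were lower at an unadjusted p below 0.05. Of all 102 genes, 43 were lower at that p (42.2%, against 11.3% of all tested genes) and 1 was higher. DESeq2 called 24 lower (against 7.39% of the 13377 genes it adjusted), limma-voom called 6 lower (against 3.88%), and neither called any higher. Nuf2, of the NDC80 kinetochore complex, had 22.2, 23.5 and 19.9 CPM in CXCL12-deficient libraries, against 41.0, 52.2 and 53.9 CPM in controls (log2 fold change -1.16 ± 0.18 SE, adjusted p = 0.012, edgeR). It was 1 of 12 kinetochore genes to fall. Dnmt1, the maintenance DNA methyltransferase that works with UHRF1, had 32.6, 43.9 and 27.7 CPM in CXCL12-deficient libraries, against 72.1, 78.9 and 114 CPM in controls (log2 fold change -1.34 ± 0.24 SE, adjusted p = 0.017, edgeR). Dnmt1 was 1 of 20 replication fork genes called. Nuf2 and Dnmt1 were each called in 4 of the 6 fits without a library and not without control replicate 2 or 3, with adjusted p up to 0.067 and 0.075. Their groups did not overlap. E2f7, an E2F repressor gene and 1 of 12 genes of the retinoblastoma and E2F families to fall, had 4.12, 2.27 and 2.44 CPM in CXCL12-deficient libraries, against 7.92, 11.1 and 12.2 CPM in controls (log2 fold change -1.82 ± 0.37 SE, adjusted p = 0.028, edgeR). Wee1, the kinase gene that holds CDK1 back and 1 of 9 genes of mitotic entry and exit to fall, had 3.79, 11.6 and 12.6 CPM in CXCL12-deficient libraries, against 25.7, 35.6 and 31.6 CPM in controls (log2 fold change -1.74 ± 0.40 SE, adjusted p = 0.045, edgeR). The condensin gene Ncapg and the cytokinesis gene Racgap1 fell by 1.10 and 1.16 on the log2 scale (adjusted p = 0.034 and 0.041, edgeR), 2 of 16 genes of their list. At E2f7, Wee1, Ncapg and Racgap1 the groups did not overlap either. E2f7 was not called without CXCL12-deficient replicate 2 or 3 or control replicate 2 or 3 (adjusted p up to 0.14). Wee1 was not called without CXCL12-deficient replicate 2 or any 1 control (up to 0.17). Ncapg was called only without control replicate 1 (otherwise up to 0.16). Racgap1 was called only without CXCL12-deficient replicate 2 or control replicate 1 (otherwise up to 0.17).

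Among 4 lists with no edgeR call, the median was near 0 for the CDK inhibitors and negative for the other 3. The counts in these lists stand beside 11.3% of all tested genes that were lower at an unadjusted edgeR p below 0.05. DESeq2 called 7.39% of the 13377 genes it adjusted lower, and limma-voom called 3.88% of all tested genes lower. Of 7 CDK inhibitor genes, edgeR, DESeq2 and limma-voom called none. The median log2 fold change was 0.01, and edgeR gave 1 gene an unadjusted p below 0.05. Cdkn1a, encoding p21, had 277, 379.8 and 364 CPM in CXCL12-deficient libraries, against 336, 379 and 288 CPM in controls (log2 fold change 0.03 ± 0.18 SE, adjusted p = 0.96, edgeR), with an interval from -0.38 to 0.43. Cdkn1c, encoding p57, had 192, 175 and 412 CPM in CXCL12-deficient libraries, against 171, 310.4 and 262 CPM in controls (log2 fold change 0.07 ± 0.34 SE, adjusted p = 0.95, edgeR), and CXCL12-deficient replicate 3 was the highest of the 6 libraries. Of 6 G1 cyclin and kinase genes none was called by edgeR or limma-voom and 1 by DESeq2, with 1 at an unadjusted p below 0.05 and a median of -0.44. By both rules this gene was Cdk2, named after its values were seen (log2 fold change -0.58 ± 0.17 SE, adjusted p = 0.11, edgeR). Its DESeq2 adjusted p was 0.037, and its groups did not overlap. The D-type cyclin genes Ccnd3 and Ccnd2, which start the G1 programme, had log2 fold changes of -0.31 ± 0.20 and 0.07 ± 0.21 (SE, adjusted p = 0.47 and 0.90, edgeR). Among the 7 genes of MuvB and its activators edgeR and limma-voom called none and DESeq2 called 1, 2 had an unadjusted p below 0.05, and the median was -0.38. Rbbp4, a MuvB subunit, and Mybl2, encoding B-Myb, had log2 fold changes of -0.15 ± 0.16 and -0.47 ± 0.31 (SE, adjusted p = 0.70 and 0.48, edgeR). Foxm1, named after its values were seen, had 9.16, 20.5 and 5.33 CPM in CXCL12-deficient libraries, against 23.5, 36.9 and 52.2 CPM in controls (log2 fold change -1.68 ± 0.48 SE, adjusted p = 0.090, edgeR). It was the gene of this list that DESeq2 called (adjusted p = 0.0035). Its groups did not overlap, and among the edgeR fits it was called only without CXCL12-deficient replicate 2 (adjusted p = 0.031). In the list of origin recognition and firing genes 0 of 13 was called by edgeR or limma-voom and 2 by DESeq2, with 3 at an unadjusted p below 0.05. The median was -0.32, with 9 of the 13 negative. The genes DESeq2 called, Cdc7 and Dbf4, encode the kinase that fires origins and its activator. They had log2 fold changes of -1.23 ± 0.30 and -0.74 ± 0.20 (SE, adjusted p = 0.055 and 0.084, edgeR), and were named after their values were seen. The most abundant members of the list, Orc3 and Orc4 of the origin recognition complex, had log2 fold changes of 0.05 ± 0.17 and 0.15 ± 0.17 (SE, adjusted p = 0.91 and 0.70, edgeR).

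Markers of other cells that a marrow sort can hold moved in the same libraries, and fewer cells of a type cannot be told apart from less RNA per cell. The counts that follow stand beside 3.94% of all tested genes that fell by edgeR. All 6 early granulocyte genes fell by edgeR (Mpo and Elane the most abundant), and their sum ran from 557 to 1258 CPM in CXCL12-deficient and from 2756 to 5367 CPM in control libraries. Of 10 B lineage genes (Cd79b and Cd79a the most abundant) 3 fell, with a sum of 84.5 to 257 CPM in CXCL12-deficient and 361 to 962 CPM in control libraries. For 8 mature neutrophil genes, all of which fell (Ngp and Ltf), the sums were 1811 to 6165 CPM in CXCL12-deficient and 11803 to 15157 CPM in control libraries. For 7 macrophage and monocyte genes, of which 5 fell (Lyz2 and Cd14), they were 390.1 to 799 CPM in CXCL12-deficient and 2125 to 3310.0 CPM in control libraries. For 7 blood progenitor genes, of which 4 fell (Sfpi1 and Myb), they were 77.2 to 118 CPM in CXCL12-deficient and 353 to 463 CPM in control libraries. For 6 megakaryocyte genes, of which 5 fell (Pf4 and Itga2b), they were 5.95 to 13.8 CPM in CXCL12-deficient and 79.7 to 259.9 CPM in control libraries. For 5 T and NK cell genes, of which 1 of 4 tested fell (Nkg7, with Cd3e next), they were 5.73 to 19.4 CPM in CXCL12-deficient and 33.5 to 63.8 CPM in control libraries, and Cd3e, Cd3g and Cd8a had no read in some CXCL12-deficient libraries. For 6 endothelial genes, of which 4 fell (Pecam1 and Esam), they were 11.8 to 19.5 CPM in CXCL12-deficient and 63.3 to 98.7 CPM in control libraries. In the sums of these 8 lists no CXCL12-deficient library reached any control, while the sums of both cell cycle blocks overlapped. Taken singly, 13.9% of all tested genes separated in this way, a share that does not apply to sums over lists.

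None of 9 measured erythroid genes (Alas2 and Beta-s the most abundant) passed the threshold in edgeR, DESeq2 or limma-voom, and 0 had an unadjusted p below 0.05. Over all tested genes, edgeR called 4.57% in either direction, and 11.3% were lower and 7.59% higher at that unadjusted p. DESeq2 called 7.39% of the 13377 genes it adjusted lower and 2.27% higher, and limma-voom 3.88% and 0.603% of all tested genes. The erythroid sum was 7213, 5380 and 1673 CPM in CXCL12-deficient replicates 1, 2 and 3, against 2850.1, 3771 and 3600.0 CPM in control replicates 1, 2 and 3. It was lowest in its group in CXCL12-deficient replicate 3 and control replicate 1, the same libraries in which the cell cycle genes were lowest. This was not particular to erythroid genes. The early granulocyte, mature neutrophil, B lineage, macrophage and monocyte, T and NK and blood progenitor sums were lowest in the same libraries. The megakaryocyte and endothelial sums were not lowest in both. Stromal genes were present in every library, with a sum of 5885 to 9276 CPM in CXCL12-deficient and 4655 to 5582 CPM in control libraries, and 2 of 9 rose, where 0.639% of all tested genes rose (Adipoq and Ebf3, with Vcam1 and Adipoq the most abundant). The sum was highest in CXCL12-deficient replicate 3 and lowest in control replicate 1. Osteoblast genes (Col1a1 and Ibsp) summed to 6280 to 11851 CPM in CXCL12-deficient and 3647 to 16057 CPM in control libraries, with the highest sum in control replicate 1. Chondrocyte genes (Col2a1 and Sox9) summed to 129 to 522 CPM in CXCL12-deficient and 174 to 1397 CPM in control libraries, and Acan, Matn3 and Col10a1 had no read in at least 1 CXCL12-deficient library. Neither list of 6 held a call by any of the 3 tools, and 0 had an unadjusted p below 0.05. Beside the shares over all tested genes given for the erythroid list, a count of 0 sets no list this short apart. The part of any of these cell types in the cell cycle values was not tested.

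**Figure D5:**
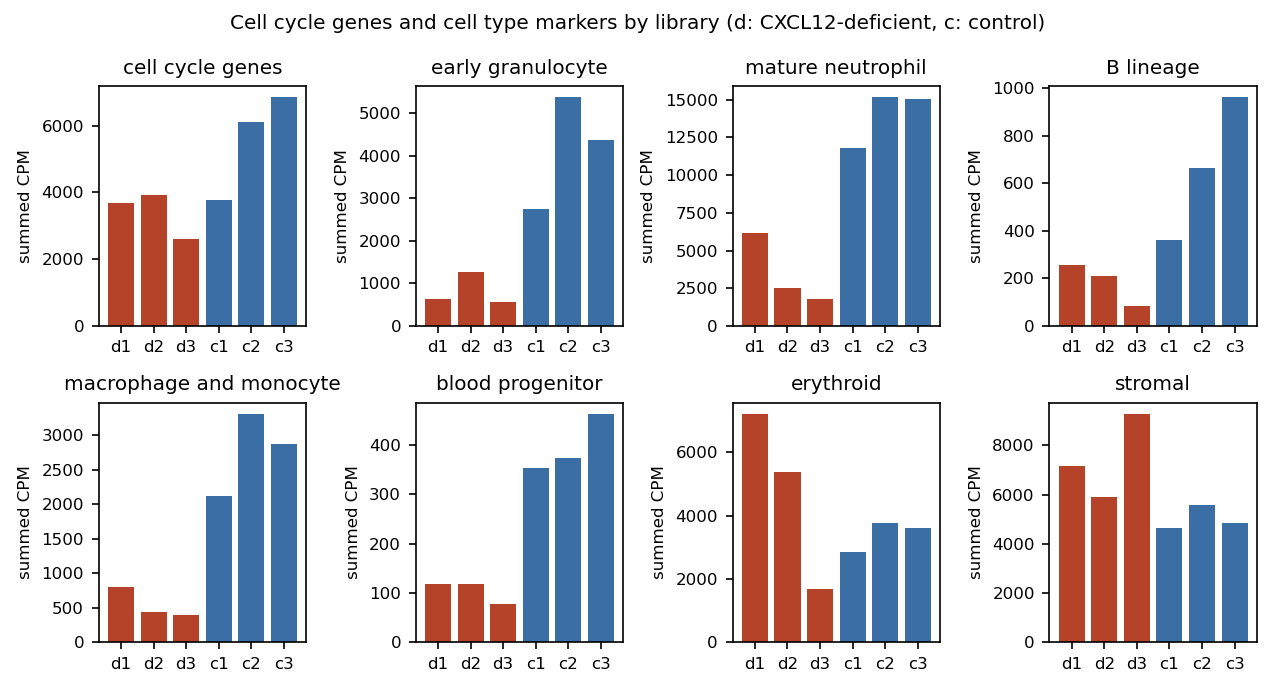
Summed CPM (y axis) of the 44 cell cycle genes and of 7 lists of cell type markers in each library (x axis; d for CXCL12-deficient replicates, c for control replicates). Granulocyte, B lineage, macrophage and progenitor sums separate the groups, while the cell cycle and erythroid sums overlap between them. The stromal sum separates the groups in the other direction.

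The targeted gene followed the labels. Cxcl12, as the sum of its 4 exon entries, had 1423, 1279.9 and 1163 CPM in CXCL12-deficient libraries, against 3876, 3673 and 3694 CPM in controls, and fell by 1.54 ± 0.17 on the log2 scale (SE, adjusted p = 0.0053, edgeR), and was called in 6 of 6 fits without a library. Fitted singly, the entries of exons 1, 2, 3 and 4 had log2 fold changes of -0.75, -3.87, -2.56 and -1.40 (edgeR), so the fall was uneven along the gene. Library totals ran from 22865174 to 25155012 reads in CXCL12-deficient and from 20133299 to 28009257 reads in control libraries.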

How the data were processed

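Gene counts were measured in 6 bulk RNA-seq libraries, amplified with a SMARTer kit and prepared with Nextera XT per the labels. The authors deposited whole-number counts per gene that are not normalized. Per the submitters' processing notes, which give no roles, the build was mm10 and the tools included Bowtie2 2.2.1, TopHat2 2.0.13, HTSeq, DESeq2, Cuffdiff, Cufflinks and FastQC. The strand setting and annotation were not given in the sources used here. Reads of overlapping or antisense genes therefore cannot be told apart. Both other deposited tables were not used. The 4 Cxcl12 exon entries were summed, so 17131 entries gave 17128 genes, of which 13926 passed filterByExpr (minimum count 10, total 15).

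Counts were tested with edgeR 4.0.16 (quasi-likelihood F test, TMM factors from 0.955 to 1.05) in R 4.3.3. P-values were adjusted by Benjamini and Hochberg's method across the 13926 genes, and calls needed an adjusted p below 0.05. Log2 CPM used a prior count of 2. At the depths here 1 read was worth 0.0357 to 0.0472 CPM. DESeq2 1.42.0, limma-voom (limma 3.58.1), DESeq2 size factors, no filter, a filter of 5 CPM in 3 libraries and leaving out each library were the alternatives. An exact permutation test of 3 against 3 cannot go below p = 0.1. The fit was tested on simulated data, with changed genes drawn from all tested genes and not from the members. It recovered 1.5% of 1.5-fold, 27.3% of 2-fold and 75.8% of 4-fold changes, and 7 of its 76 calls were false. A gene without a call may therefore still differ. Figures were drawn with matplotlib 3.10.9 in Python 3.11.15.

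The members and the lists were chosen with earlier results of these data known. Values in all libraries are given for called members and, per role, for up to 3 members with the smallest unadjusted p and the 1 with the largest. From the other cell cycle lists the called genes are named, or the 2 most abundant where none was called, and from the marker lists the 2 most abundant. Adgre1 was matched as Emr1 and Spi1 as Sfpi1, and Hbb-bs and Hba-a1 matched no entry. The values of 1 marker gene are not reported here. Replicate numbers are in accession order and pair no samples. Exon lengths came from GENCODE M21 and may differ from the authors' annotation.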

Additional observations from a re-analysis of the deposited data

How the results depend on the processing

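Under another scaling, filter or tool, 202 of the tests of single members kept their direction and side of the threshold, 17 newly passed it, and 0 lost a call or changed sign. The G1/S calls (0 by edgeR) were 5 by DESeq2, and between 0 and 7 when 1 library was omitted. The G2/M calls (3 by edgeR) were 11 by DESeq2 and 6 with a filter of 5 CPM in 3 libraries, which added Bub1b, Cenpe and Cenpf and left Ung untested, and were between 0 and 7 when 1 library was omitted. Over all tested genes, 637 calls by edgeR compared with 1292 by DESeq2 and with 74 (without control replicate 3) to 577 (without control replicate 1) when 1 library was left out; without control replicate 2 there were 160. The cause was not tested. Leaving out 1 library kept 235 of the tests of single members, ended 14 calls, added 13 and changed 2 signs, both of Ccne1, whose log2 fold change lay between -0.41 and 0.19 in these fits, at 0.19 without CXCL12-deficient replicate 3 and 0.10 without control replicate 3. The block differences kept their sign throughout, from -0.91 to -0.48 for G1/S and from -1.06 to -0.61 for G2/M without 1 library. No paired analysis was possible because the labels carry no replicate numbers.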
